A study of Homo sapiens with 18 samples.

Results

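The U5 small nuclear RNA (snRNA) genes RNU5A-1, RNU5B-1, RNU5D-1, RNU5E-1 and RNU5F-1 were examined for RNA polymerase II (Pol II) carrying phosphate at serine 5 of the repeats in its C-terminal domain, a form abundant near transcription starts. Each gene had 1 row in the deposited count table, so they make up 5 of its 12123 regions. The rows were found by hg19 position, as the regions that overlap a window set around each gene. RefSeq lists the same 5 U5 snRNA genes, on the same chromosomes and in the same order along them, in its GRCh38 annotation. The genes were picked out because their signal was known to be higher after dTAG47. Their differences from DMSO are therefore given as a description, with estimates and intervals but no p-value, and the calls that the fit over all regions makes at these genes support nothing.

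The cells were Rh30, an alveolar rhabdomyosarcoma line driven by the fusion transcription factor PAX3-FOXO1, in which the fusion carries an FKBP tag. The small molecule dTAG47 directs FKBP-tagged proteins to degradation. Ser5-phosphorylated Pol II was measured by ChIP-seq with the antibody ab5131 in cells given DMSO, in cells given 500 nM dTAG47 for 2 h and in cells given 500 nM dTAG47 for 4 h, with 2 libraries, A and B, in each group. All 3 groups carry the tagged fusion. The labels do not say whether the line is a single clone, or whether libraries A and B were grown as separate cultures. The spread behind the intervals and p-values of the fit over all regions is that between these libraries and may be purely technical. That fit shares the spread across regions, with a median of 46.6 degrees of freedom (residual plus prior) from 6 libraries. The values at a gene therefore rest mainly on spread borrowed from other regions. The identity of the line was not checked against marker genes here.

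U5 snRNA is the RNA core of the U5 small nuclear ribonucleoprotein, which serves both the major and the minor spliceosome. Its conserved loop holds the ends of the exons while they are joined. The genes are short and lack introns, and Pol II transcribes them from a dedicated snRNA promoter that the complex SNAPc binds, with 3′ ends formed by the Integrator complex in place of polyadenylation. RNU5A-1 and RNU5B-1 encode the forms described as the main ones in human cells, and the other genes encode sequence variants of the same RNA.

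Total counts over all regions ran from 962251 in 4 h library B to 1792013 in DMSO library A. Values are given as raw counts and as CPM, that is, scaled to the same library size with TMM factors. Every region spans 400 bases, so region width does not differ between genes. Where a region lies relative to the start of its gene was not measured, so differences in level between genes describe the regions only. Intervals on counts cover counting error only. The 5 genes encode variants of the same RNA, and RefSeq lists 29 further U5 pseudogenes. How much sequence the 5 regions share was not examined, and the labels do not state how reads that map to several places were handled. The division of reads among the genes is uncertain for that reason.

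Ser5 Pol II was higher in each of the 4 dTAG47 libraries than in both DMSO libraries at 5 of the 5 genes. The summed U5 signal was 842 ± 41.8 CPM in DMSO, 2365 ± 119 CPM at 2 h and 1988 ± 12.7 CPM at 4 h (SD, n = 2 each). That is 2.81 times the DMSO sum at 2 h and 2.36 times at 4 h. The same arrangement of libraries, with all dTAG47 values above both DMSO values, held at 12.6% of all regions.

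As a share of a library's counts, the U5 regions took 0.0839% (library A) and 0.0890% (library B) in DMSO, 0.243% and 0.223% after 2 h of dTAG47, and 0.198% and 0.195% after 4 h. These shares use no scaling factor. The exact 95% binomial interval reached at most 940 CPM, without TMM factors, in a DMSO library. It started at 1860 CPM or above in every dTAG47 library. These intervals cover counting error only, and the genes were chosen for this difference, so the gap supports nothing. Neither the shares nor the CPM values would show a uniform shift of the whole table.

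**Figure D1:**
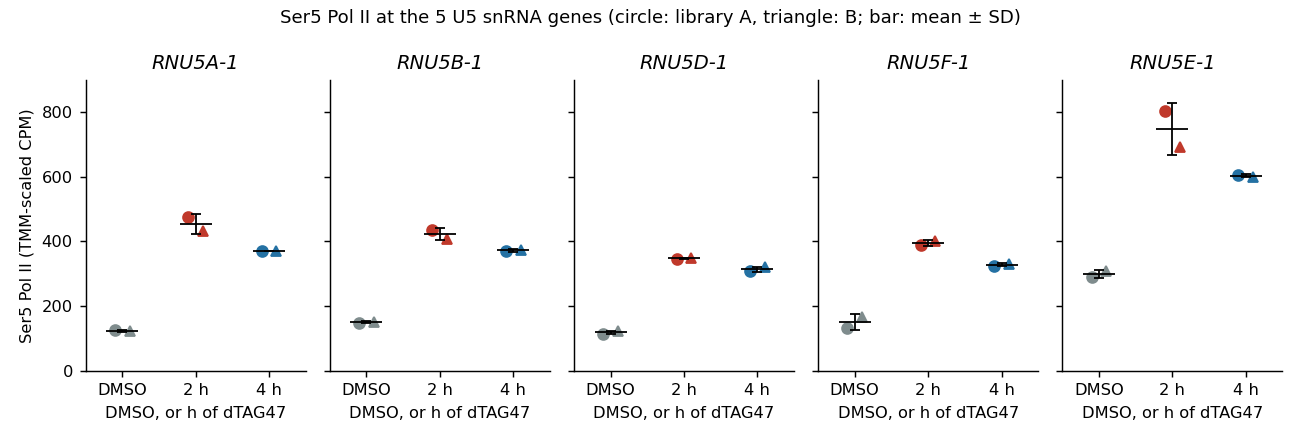
Ser5 Pol II at each U5 gene in TMM-scaled CPM (vertical axis) in DMSO, after 2 h and after 4 h of dTAG47 (horizontal axis). Circles are library A, triangles are library B, and bars give the mean ± SD (n = 2). In each of the 5 panels both 2 h libraries stand highest, both 4 h libraries lie below them and both DMSO libraries are lowest.

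RNU5A-1, on chromosome 15, was measured in the region from 65588533 to 65588933 (hg19, as deposited). It had 234 counts in library A and 178 in library B of DMSO, with 680 and 567 at 2 h, and 587 and 348 at 4 h. In CPM these were 126 and 122 in DMSO, 475 and 431 at 2 h, and 370 and 371 at 4 h, so that no groups overlapped. RNU5A-1 had the largest log2 fold change of the whole table at both times in the edgeR fit, 1.87 at 2 h (95% interval 1.55 to 2.18) and 1.58 at 4 h (1.26 to 1.89).

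RNU5B-1 lies next to it, with a region from 65597070 to 65597470 that starts 8.54 kb further along chromosome 15. RefSeq places both genes between the protein-coding genes PARP16 and IGDCC3. Counts at RNU5B-1 were 274 and 222 in DMSO, 625 and 538 at 2 h, and 586 and 352 at 4 h. They corresponded to 148 and 152 CPM in DMSO, 436 and 409 CPM at 2 h, and 369 and 375 CPM at 4 h. Again the 3 groups stood apart, with the 2 h libraries on top. The log2 fold change was 1.50 at 2 h (95% interval 1.19 to 1.80) and 1.31 at 4 h (1.00 to 1.62).

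RNU5F-1 and RNU5D-1 form a second pair, on chromosome 1, with region starts 9.20 kb apart, and RefSeq places them between ARMH1 and KIF2C. The RNU5F-1 region, from 45187147 to 45187547, had 246 and 245 counts in DMSO, 555 and 528 at 2 h, and 515 and 311 at 4 h. In CPM these were 133 and 168 in DMSO, 388 and 401 at 2 h, and 325 and 331 at 4 h. Its DMSO libraries were the furthest apart of the 5 genes in relative terms, and still lay below every dTAG47 library. The log2 fold change was 1.40 at 2 h (95% interval 1.09 to 1.71) and 1.13 at 4 h (0.82 to 1.44).

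At RNU5D-1, the other gene of the pair, the region from 45196343 to 45196743 had 213 and 178 counts in DMSO, 496 and 458 at 2 h, and 489 and 300 at 4 h. These came to 115 and 122 CPM in DMSO, 346 and 348 CPM at 2 h, and 308 and 320 CPM at 4 h. The 2 h and 4 h libraries were closest to each other at this gene, without overlap. Its log2 fold change was 1.55 at 2 h (95% interval 1.25 to 1.86) and 1.41 at 4 h (1.10 to 1.71).

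RNU5E-1 stands alone on chromosome 1, with a region from 11968404 to 11968804, and RefSeq places it between NPPB and KIAA2013, next to the pseudogene RNU5E-4P. It carried the most Ser5 Pol II of the 5 genes, with 537 and 450 counts in DMSO, 1151 and 909 at 2 h, and 963 and 563 at 4 h. In CPM these were 290 and 308 in DMSO, 804 and 691 at 2 h, and 607 and 600 at 4 h. No groups overlapped, and the 2 h libraries differed most from each other here. Its log2 fold change was the smallest of the 5 at both times, 1.32 at 2 h (95% interval 1.00 to 1.65) and 1.01 at 4 h (0.69 to 1.34).

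**Figure D2:**
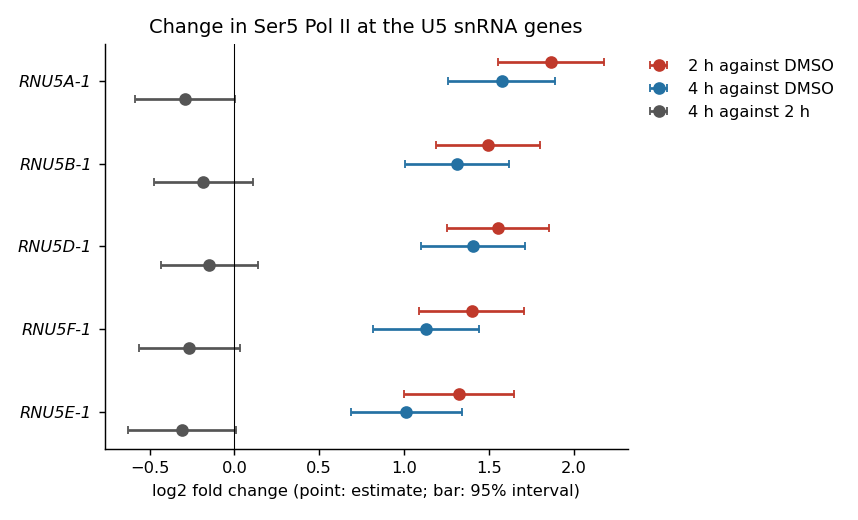
Log2 fold changes of Ser5 Pol II (horizontal axis) at each U5 gene for 2 h against DMSO, 4 h against DMSO and 4 h against 2 h. Points are edgeR estimates and bars are 95% intervals. The estimates against DMSO run from 1.01 to 1.87, and those of 4 h against 2 h from -0.31 to -0.15 with intervals that include 0.

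Across the 5 genes the median log2 fold change was 1.50 at 2 h, against -0.01 over all regions, and 1.31 at 4 h, against -0.01 over all regions. The edgeR quasi-likelihood test, with Benjamini-Hochberg adjustment over all regions and a threshold of 0.05, called 5 of the 5 higher at each time. It called 2.22% of all regions higher at 2 h and 1.52% at 4 h, and 0.396% and 0.487% lower. With a block by library letter, 629 regions were higher at 2 h and 540 at 4 h, against 269 and 184 without it. The genes were chosen for this contrast, and nothing is read from their count. In order of log2 fold change the genes ran RNU5A-1, RNU5D-1, RNU5B-1, RNU5F-1, RNU5E-1 at both times, which share the same DMSO libraries. In that order they ranked 1, 3, 6, 10 and 15 of the 12123 regions at 2 h. At 4 h they ranked 1, 3, 7, 22 and 35, so other regions lay among them at both times. The 95% intervals of neighbours in that order overlapped at each step.

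The 3 regions with the highest counts in the table took 1.77% of all counts in library A and 2.61% in library B of DMSO, with 2.61% and 3.21% at 2 h and 2.61% and 4.17% at 4 h, a share that was higher in the B library of each group. With that share as a covariate the median over the U5 genes remained at 1.50 (log2 fold change) after 2 h and 1.31 after 4 h. Single genes moved in both directions. At 4 h the log2 fold change fell from 1.13 to 1.01 at RNU5F-1 and from 1.41 to 1.35 at RNU5D-1. It rose from 1.58 to 1.63 at RNU5A-1 and from 1.01 to 1.05 at RNU5E-1.

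**Figure D3:**
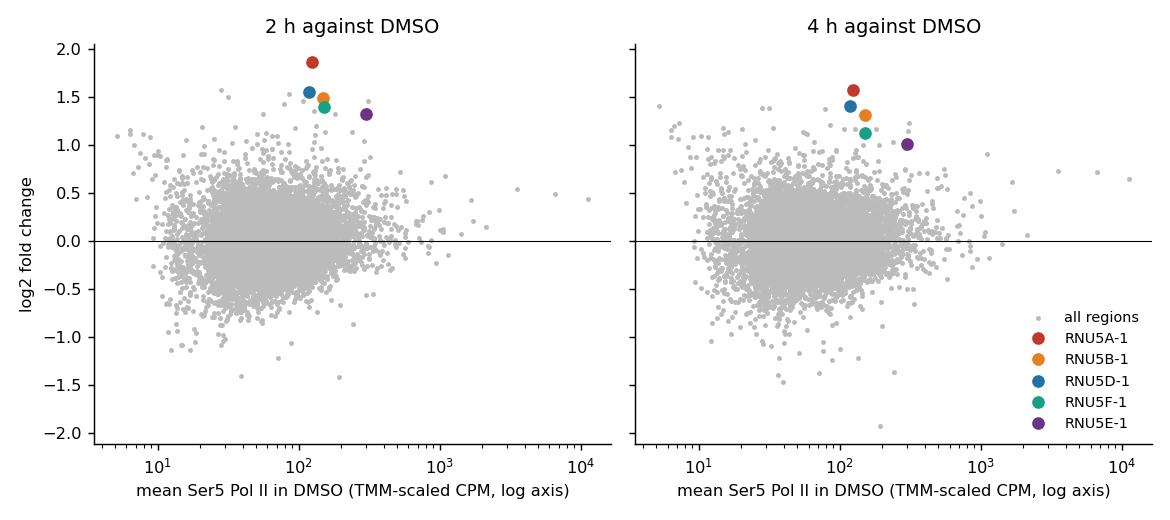
Log2 fold change (vertical axis) against the mean DMSO level in TMM-scaled CPM (horizontal axis, log scale) for all 12123 regions in grey and the 5 U5 genes in colour, at 2 h (left) and 4 h (right). The U5 genes lie at DMSO levels of 118 to 299 CPM with log2 fold changes of 1.32 to 1.87 at 2 h and 1.01 to 1.58 at 4 h.

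The order of the genes by level is given as a description, since the DMSO values enter the difference for which they were chosen. In DMSO, RNU5E-1 averaged 299 ± 12.7 CPM (SD, n = 2), which put it at rank 146 of the 12123 regions, within the top 1.20%. It was 1.99 times as high as the next gene, RNU5F-1, with 150 ± 24.6 CPM. RNU5B-1 had 150 ± 2.81 CPM and could not be told from RNU5F-1, since its DMSO libraries lay between those of that gene. RNU5A-1, at 124 ± 3.21 CPM, and RNU5D-1, at 118 ± 4.81 CPM, overlapped each other and lay below both RNU5B-1 libraries. The last of the 5, RNU5D-1, ranked 1670 and was within the top 13.8% of regions.

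After dTAG47 RNU5E-1 stayed highest and RNU5D-1 lowest. At 2 h the order was RNU5E-1 (747 ± 79.7 CPM), RNU5A-1 (453 ± 31.0 CPM), RNU5B-1 (423 ± 19.4 CPM), RNU5F-1 (394 ± 9.77 CPM) and RNU5D-1 (347 ± 1.28 CPM). The libraries of RNU5A-1 and RNU5B-1 overlapped at 2 h and those of the other neighbours in the order did not. At 4 h RNU5E-1 had 603 ± 4.94 CPM, RNU5B-1 372 ± 4.08 CPM, RNU5A-1 370 ± 0.620 CPM, RNU5F-1 328 ± 4.83 CPM and RNU5D-1 314 ± 8.12 CPM. RNU5B-1 and RNU5A-1 overlapped once more and the other neighbours did not.

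How the U5 signal was divided among the genes can be read within each library, free of any scaling between libraries. RNU5A-1 held 15.6% of the U5 counts in library A and 14.0% in library B of DMSO, with 19.4% and 18.9% at 2 h, and 18.7% and 18.6% at 4 h. RNU5E-1 held 35.7% and 35.3% in DMSO, 32.8% and 30.3% at 2 h, and 30.7% and 30.0% at 4 h. Each dTAG47 library lay above the DMSO libraries in the share of RNU5A-1 and below them in the share of RNU5E-1. For the RNU5A-1 share, the exact 95% intervals were 18.1% to 20.7% in library A and 17.5% to 20.3% in library B at 2 h, both above those of 13.8% to 17.5% and 12.1% to 16.01% in DMSO, though 2 h library B and DMSO library A nearly met. At 4 h they were 17.3% to 20.1% and 16.8% to 20.4%, which overlapped the interval of DMSO library A and lay above that of DMSO library B. For the RNU5E-1 share, the intervals of 31.3% to 34.4% in library A and 28.7% to 32.0% in library B at 2 h, and of 29.1% to 32.3% and 28.0% to 32.2% at 4 h, were set against 33.3% to 38.2% and 32.7% to 38.0% in DMSO. Only that of 2 h library A overlapped an interval of DMSO. These intervals cover counting error only, and the libraries of a group differed by more than that. The shares restate the unequal changes of genes chosen for their rise, so the gaps between intervals support nothing.

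Shares of the other genes moved less. RNU5B-1 held 17.8% ± 0.551 in DMSO, 17.9% ± 0.0791 at 2 h and 18.7% ± 0.0856 at 4 h (SD, n = 2 each). RNU5D-1 held 14.1% ± 0.127, 14.7% ± 0.795 and 15.8% ± 0.308 in the same order of groups. RNU5F-1 held 17.8% ± 2.04 in DMSO, 16.7% ± 1.25 at 2 h and 16.5% ± 0.137 at 4 h, with overlapping libraries.

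**Figure D4:**
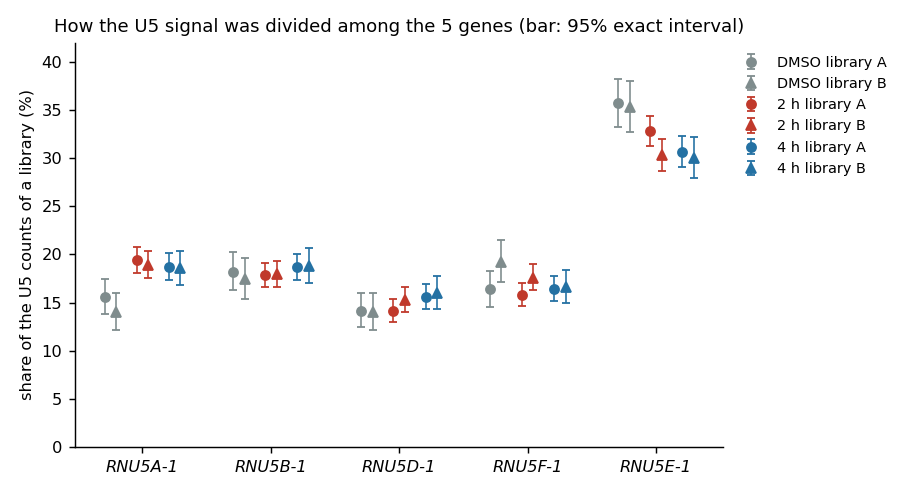
Share of the summed U5 counts of a library (vertical axis, percent) held by each U5 gene (horizontal axis), with circles for library A, triangles for library B and bars for exact 95% binomial intervals. RNU5A-1 held 14.0% to 15.6% in DMSO and 18.6% to 19.4% after dTAG47, and RNU5E-1 held 35.3% to 35.7% in DMSO and 30.0% to 32.8% after dTAG47.

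Within the chromosome 15 pair, RNU5A-1 had 1.09 and 1.05 counts per count at RNU5B-1 in libraries A and B of 2 h, against 0.854 and 0.802 in DMSO. The ratio was 1.00 and 0.989 in the 4 h libraries. RNU5A-1 was thus the lower gene of its pair in both DMSO libraries and close to level with RNU5B-1 or above it after dTAG47. In the chromosome 1 pair, the ratio of RNU5D-1 to RNU5F-1 was 0.894 and 0.867 at 2 h, against 0.866 and 0.727 in DMSO, and was 0.949 and 0.965 at 4 h. The 2 h and DMSO ratios of this pair nearly met, and RNU5D-1 was the lower gene in every library. The ratios come from the same counts as the shares and carry the same limits.

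The direct comparison of 4 h with 2 h is not the contrast for which the genes were chosen. It uses the same dTAG47 libraries, so it is not free of that choice, and its value at RNU5E-1 was known beforehand. Over all regions the median log2 fold change of 4 h over 2 h was -0.003. The U5 genes varied together across the libraries, so they do not count as separate observations. Their log2 fold change of 4 h over 2 h was negative at 5 of the 5 genes. It was -0.31 at RNU5E-1 (95% interval -0.63 to 0.01), -0.29 at RNU5A-1 (-0.58 to 0.002), -0.27 at RNU5F-1 (-0.56 to 0.03), -0.18 at RNU5B-1 (-0.48 to 0.11) and -0.15 at RNU5D-1 (-0.43 to 0.14). The edgeR test called 0 of the 5 genes (adjusted p = 0.998 for each), against 0.0% of all regions called. An unadjusted p under 0.05 was reached by 0 of the 5 in edgeR, where the lowest was 0.0513, by 0 in DESeq2 and by 2 in limma-voom, and neither of these tools called any. Over all 12123 regions, an unadjusted p under 0.05 was reached by 396 in edgeR, 33 in DESeq2 and 385 in limma-voom. With a block by library letter edgeR also called 0 of the 5, with adjusted p-values from 0.526 at RNU5E-1 to 0.906 at RNU5D-1.

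Both 4 h libraries lay below both 2 h libraries at 5 of the 5 genes, an arrangement found at 16.4% of all regions. Measured from the DMSO mean, the signal at 4 h kept 67.9% of the 2 h increase at RNU5E-1, 72.8% at RNU5F-1, 74.9% at RNU5A-1, 81.5% at RNU5B-1 and 85.4% at RNU5D-1. The intervals above include no change, and they include a fall to 0.65 times the 2 h level at RNU5E-1 and to 0.74 times at RNU5D-1. The share of the 3 highest regions was also used as a covariate. RNU5E-1 alone among the U5 genes was then called lower at 4 h than at 2 h (log2 fold change -0.30, edgeR adjusted p = 0.0468). That fit called 4 of the 12123 regions lower, RNU5E-1 among them. In the other alternatives that left no library out, the adjusted p of RNU5E-1 was 0.526 (edgeR, block by letter) or above.

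Neighbouring regions were compared next, since they were chosen by position and not by signal. Within 50 kb of a U5 region the table held 6 others, and the edgeR test called 0 of them at 2 h and 0 at 4 h against DMSO. Over all regions it called 2.61% at 2 h and 2.0% at 4 h in either direction, so a count of 0 among 6 regions does not set them apart from the table. An unadjusted p under 0.05 was reached by 1 of the 6 at 2 h and by 0 at 4 h in edgeR, and by 1 and 0 in limma-voom, which called 0. Over all 12123 regions edgeR gave 1735 such regions at 2 h and 1611 at 4 h, and limma-voom gave 1754 and 1598. No adjusted p came from DESeq2 for 4 of the 6 at 2 h and 2 of the 6 at 4 h. It called 0 of the others and had 0 of the 6 at an unadjusted p under 0.05. Over all regions DESeq2 gave 568 such regions at 2 h and 517 at 4 h. Their log2 fold changes lay between -0.21 and 0.46 at 2 h and between -0.23 and 0.17 at 4 h.

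Next to RNU5A-1 on chromosome 15, the region from 65578635 to 65579035, which starts 9.90 kb before it, had 83.1 ± 3.96 CPM at 2 h, against 95.9 ± 4.93 CPM in DMSO. Its log2 fold change was -0.21 ± 0.15 (SE, edgeR adjusted p = 0.554). Beyond RNU5D-1 on chromosome 1, the region from 45205326 to 45205726, which starts 8.98 kb after it, had 83.2 ± 15.6 CPM at 2 h, against 74.0 ± 21.4 CPM in DMSO (edgeR log2 fold change 0.15 ± 0.17, SE, with adjusted p = 0.749). After RNU5E-1 the nearest region, from 11986275 to 11986675, had 54.0 ± 5.30 CPM at 2 h, against 40.0 ± 13.1 CPM in DMSO (edgeR log2 fold change 0.46 ± 0.21, SE, with adjusted p = 0.278). Of the 6, this last region had the highest log2 fold change at 2 h, and at 4 h its value was 0.04. No other region lay within 50 kb between the genes of a pair, after RNU5B-1, before RNU5F-1 or before RNU5E-1.

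**Figure D5:**
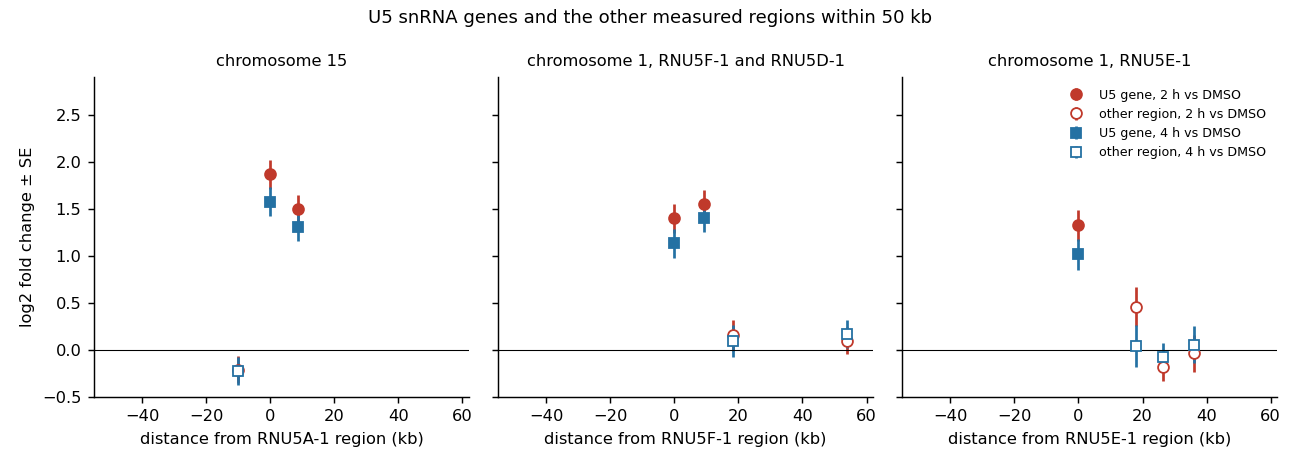
Log2 fold change ± SE against DMSO (vertical axis) of the U5 genes (filled) and of the 6 other measured regions within 50 kb (open), by distance in kb from RNU5A-1, RNU5F-1 and RNU5E-1 (horizontal axes), at 2 h (circles) and 4 h (squares). The U5 genes lie between 1.01 and 1.87 and the other regions between -0.23 and 0.46.

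The 5 genes varied together across the 6 libraries. The log2 CPM of a single gene and the mean of the other 4 had a Pearson's r of 0.987 at RNU5F-1 to 0.999 at RNU5B-1 over 6 libraries that fall into the same 3 groups, given as a description. The genes were all chosen as higher after dTAG47, so a high r among them was largely set by that choice. Among 10364 other regions averaging at least 50 counts, the median r with the U5 mean was 0.0103, and 17 regions reached 0.99. These regions were not chosen that way, so the gap between their median and the r among the U5 genes supports nothing. The 5 most alike lay on chromosome 11 at 62608878 to 62609278 (r = 0.9997), on chromosome 12 at 120729385 to 120729785 (0.9957) and 15841325 to 15841725 (0.9952), and on chromosome 1 at 161168467 to 161168867 (0.9957) and 149223777 to 149224177 (0.9956). They were tied to no gene here.

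The chromosome 11 region was also near the U5 genes in size of change, with 789 ± 22.1 CPM at 2 h and 678 ± 21.7 CPM at 4 h, against 305 ± 11.2 CPM in DMSO, and log2 fold changes of 1.37 and 1.15. For the region at 120729385 on chromosome 12 these were 1.33 after 2 h and 1.17 after 4 h. The others had smaller ones, from 0.74 to 1.05 at 2 h and from 0.56 to 0.97 at 4 h. A high r here gives the order and spacing of the libraries and not the size of the change.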

How the data were processed

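Ser5 Pol II ChIP-seq counts were used from 6 of the 18 samples, and the 12 made with other antibodies were not analysed here. The authors deposited raw read counts per region. Tools listed in the submitters' processing notes are Bowtie2, MACS2, DiffBind, DESeq2 and Trimmomatic 0.32, with the builds hg19 and dm3. Their roles, the calling of regions and the treatment of duplicates and input are not stated there. Columns carry a group and a letter, which was not tied to a replicate number. The libraries of a group differed by more than sampling noise (chi-square per degree of freedom 1.50 to 2.33).

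Counts of all 12123 regions were fitted together with edgeR 4.0.16 (quasi-likelihood, TMM, R 4.3.3), with 3 group means and 6 libraries. The same fit was also run on simulated counts built from the means and common dispersion of these data, with results not given here. No region was lost to filterByExpr (0 removed). Benjamini-Hochberg adjustment ran over all regions. A standard error is the log2 fold change divided by the square root of F. Shares have exact Clopper-Pearson intervals (scipy 1.17.1). Gene names and gene order came from the RefSeq table of GRCh38.p14, whose coordinates were not used. No hg19 annotation was used here, so the planned lists of U5 protein and snRNA transcription genes were not run, and where the regions lie relative to gene starts was not measured. Promoter sequences matched 0 of the 5 genes and none is shown.

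The genes, windows, lists and alternatives were chosen with earlier results of these data known. Named regions are the 5 genes, the nearest other region on each side within 50 kb, and the 5 regions most alike over the 6 libraries.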

Additional observations from a re-analysis of the deposited data

How the results depend on the processing

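At the U5 genes, 75 of 75 alternative log2 fold changes kept their sign and call at 2 h against DMSO and 75 of 75 at 4 h. They ran from 1.21 at RNU5E-1 to 1.94 at RNU5A-1 at 2 h and from 0.96 to 1.63 at 4 h. The genes were chosen for this rise and the alternatives reuse the same libraries, so these tallies against DMSO support nothing. Each tally of 75 also includes the fits without the low count filter, which equal the main fit. For 4 h against 2 h, 74 of 75 kept both, and RNU5E-1 passed the threshold with the covariate for the 3 highest regions (1 of the 5 genes called lower). With that covariate 4 of the 12123 regions were called lower. Leaving out 1 library moved the median of the 5 genes for 4 h against 2 h. It ran from -0.20, without 2 h library A, to -0.28, without 4 h library B.

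Counts over all regions moved more, and the cause was not tested. Main counts were 269 higher and 48 lower at 2 h, 184 and 59 at 4 h, and 0 between the times. Total count scaling gave 166 higher and 87 lower at 2 h and 120 higher and 83 lower at 4 h. DESeq2 gave 96 and 3 at 2 h and 52 and 4 at 4 h, with no adjusted p for 7991 and 7286 regions. Fitting only the groups compared gave 81 lower at 2 h. The covariate gave 157 lower at 2 h, 146 lower at 4 h and 4 lower between the times. With 1 library left out, counts at 2 h ran from 127 higher (without 2 h library B) to 365 (without 4 h library B) and from 15 lower (without 2 h library A) to 87 (without 4 h library A), at 4 h from 89 higher (without DMSO library A) to 314 (without DMSO library B) and from 27 lower (without 4 h library B) to 71 (without 2 h library A), and between the times from 0 to 1 higher (without 4 h library A).

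Deviations of same-letter libraries from their group means correlated at 0.219 (2 h and DMSO), 0.279 (4 h and DMSO) and 0.158 (4 h and 2 h), a hint from the data that libraries of a letter vary together. The labels do not say what a letter stands for, and the main fit has no block. A replicate block by letter gave 629 higher and 230 lower at 2 h and 540 and 203 at 4 h, and changed no call at a U5 gene. Each window held 1 row, so summing rows was not run, and dropping the filter, which removed 0 regions, tested nothing.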
